A study of Homo sapiens with 12 samples.

Results

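The mitochondrial ribosomal protein genes were taken as all genes whose platform symbol starts with MRPL (large subunit) or MRPS (small subunit) followed by a number, read from probe sets that carry a single symbol. The rule found 77 genes on 142 probe sets, of 19777 genes with such a probe set. Of these, 76 were among the 12852 genes that reached a group mean of 6 on the log2 scale in at least 1 group and were tested. MRPL45P2, a pseudogene, did not reach it, with group means from 2.84 to 2.98. MRPL20-AS1, an antisense RNA, did, but encodes no subunit and was kept apart, which left 75 subunit genes, 25 of the small and 50 of the large subunit. All 75 passed the limit in every group, and the lowest group mean of any of them was 8.51. MRPS24 and MRPL53 were matched only by probe sets shared with a neighbouring gene and are not analysed here.

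Mitochondrial ribosomal proteins are encoded in the nucleus, made on cytosolic ribosomes and imported into mitochondria, where they join ribosomal RNAs made from mitochondrial DNA. The small subunit decodes the messenger RNA and the large subunit forms the peptide bond, and the finished ribosome makes only membrane subunits of the respiratory chain and of ATP synthase. Many subunits have a homologue in the bacterial ribosome, others exist only in mitochondria, and doxycycline, an antibiotic that binds the bacterial small subunit, also inhibits mitochondrial translation. MYC and the ETS factor GABP are known regulators of genes for the mitochondrial translation machinery.

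RNA was measured on Affymetrix U133 Plus 2.0 arrays from HCT116, a human colorectal carcinoma line with an oncogenic RAS allele, with 3 arrays in each of 4 groups. HCT116 control cells were grown for 3 days with vehicle or with 25 ng/ml doxycycline, the drug that induces hairpin vectors in other cells of the study, and the vector that the control cells carry is not given in the sources used here. Hke3 and Hkh-2 are HCT116 derivatives in which homologous recombination removed the mutant allele, each grown from 1 clone and cultured without treatment, so that clone and genotype cannot be told apart. The control cells also differed from both lines in the vehicle, the set culture time and any vector. Labels of the control arrays also carry a number, of a meaning not given in the sources used here, that the labels of both lines lack. In vehicle minus either line these differences cannot be told apart from clone and genotype. All cells grew in DMEM with 10% FBS. It is not given whether separate cultures stand behind the arrays of each group, so the p-values measure the spread between these arrays, which may be technical, and in RNA from a whole culture fewer cells with a transcript and less transcript per cell cannot be told apart.

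The values are log2 signals normalized with RMA by the authors, and differences were tested with limma, with p-values adjusted over all 12852 genes by the Benjamini-Hochberg method and called below 0.05. The epithelial markers EPCAM (13.04 to 13.3), KRT8, KRT18, KRT19 and CDH1 were high on every array, and VIL1 lay at 6.36 to 6.65. Of the markers of other cell types, COL1A1 (8.11 to 8.53) and PECAM1 (6.45 to 6.91) read as high as VIL1 or higher, CD3E (5.89 to 6.36) and DCN (5.86 to 6.44) nearly so, and COL1A2, PDGFRB, PTPRC and CDH5 between 3.68 and 5.53. The endothelial marker VWF was higher in the HCT116 control groups (means 6.35 and 6.33) than in Hke3 (5.34) and Hkh-2 (5.32), and its part in the results was not tested. CD68 had no probe set of its own. Replicate 2 of HCT116 control vehicle and replicate 3 of Hke3 lay away from the rest of their groups in the same way, with deviations from the group means that correlated at r = 0.683 over all genes and at r = 0.766 over the 75 subunit genes, as a description. Counts are therefore also given without both. Both arrays were picked from these same data for lying away from their groups, which narrows the spread, so counts without them are a description and no independent check. The subunit genes had a median level of 10.95 (8.70 to 13.01) against 8.52 for all genes tested and a median within-group SD of 0.0859 against 0.124, and they lie on 21 chromosomes with at most 8 on any of them.

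Hke3 cells had less RNA for many subunits than HCT116 control vehicle cells. Of the 75 genes, 25 (33.3%) were higher in vehicle than in Hke3, where 24.6% of all genes were, and 5 (6.67%) were lower, where 23.2% of all genes were. The median difference was 0.16 on the log2 scale for the subunit genes and 0.0447 for all genes tested. The fold changes were small, and 6 of the 75 genes differed by more than 0.5 on the log2 scale, where 2889 of all 12852 genes did. Without both arrays that stand apart, 37 (49.3%; 29.7% of all genes) were higher and 6 (8%; 24.7% of all genes) lower, and these included all of the 25 and 5. With the mean of all probe sets of a gene in place of the brightest, 24 (32%) were higher, where 26.7% of all genes were. The median then fell to 0.102 for the subunit genes and rose to 0.0553 for all genes, so the gap between them was smaller.

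**Figure D1:**
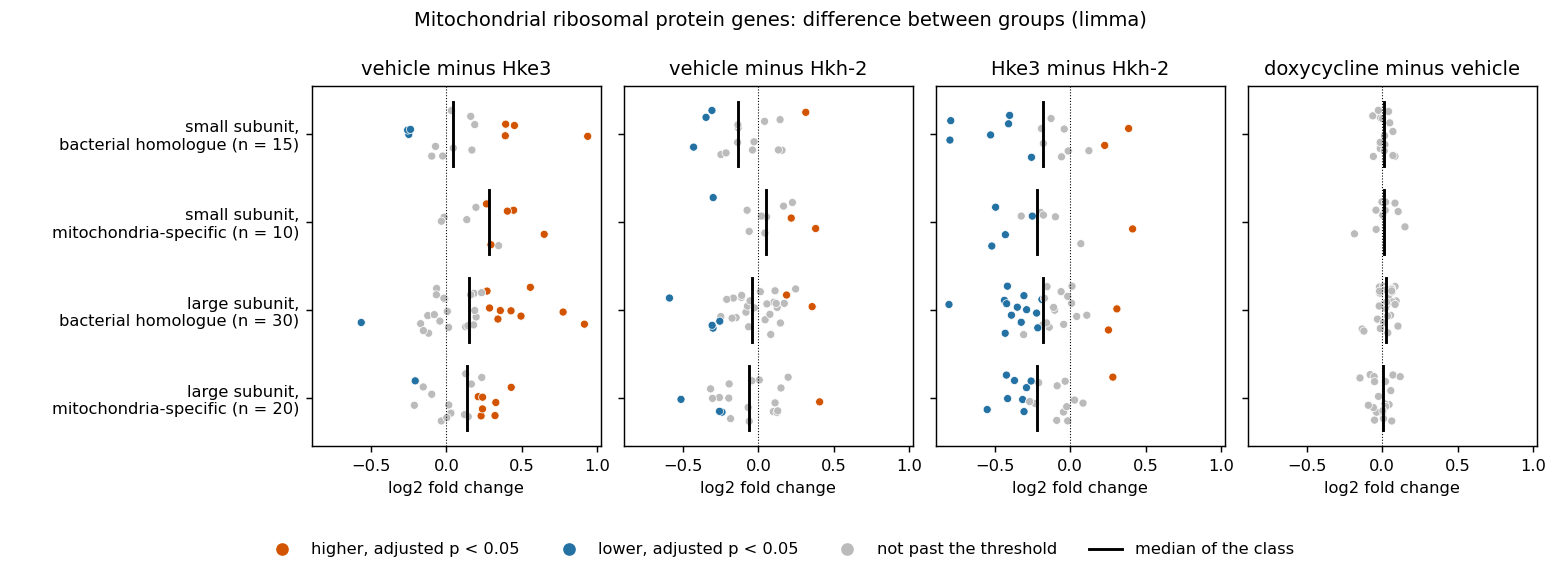
Each point is 1 of the 75 subunit genes, placed by its log2 fold change (x axis) in 4 comparisons (panels) and by subunit and homology class (rows), with the vertical bar at the class median. Most called genes lie to the right in vehicle minus Hke3 (25 of 30) and to the left in Hke3 minus Hkh-2 (31 of 37), and none was called for doxycycline minus vehicle.

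MRPS2 and MRPL4, which both have bacterial homologues, had the largest differences. MRPS2, a small subunit protein with a bacterial homologue (GRCh38.p14, chromosome 9, 135499965 to 135504673), read 10.79, 11.14 and 10.82 on the vehicle arrays and 9.68, 9.77 and 10.49 on the Hke3 arrays. It was 1.91-fold higher in vehicle (log2 fold change 0.94, SE 0.17, adjusted p 0.000607 with limma). The groups did not overlap, but the Hke3 array that stands apart lay nearer to the vehicle arrays than to the other Hke3 arrays, and without both such arrays the difference was 1.08.

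MRPL4, a large subunit protein (chromosome 19, 10251951 to 10260055), showed the same spread, at 10.58, 11.04 and 10.54 in vehicle and 9.51, 9.54 and 10.37 in Hke3. The difference was 0.91 (SE 0.19, adjusted p 0.00187), and 1.04 without both arrays that stand apart. MRPL4 was read by 3 probe sets, all of which were higher in vehicle than in Hke3, with log2 fold changes of 0.91, 0.48 and 0.93.

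MRPS27, a mitochondria-specific protein of the small subunit (chromosome 5, 72219403 to 72320240), had the smallest adjusted p of the 75 genes. Its values were 11.55, 11.46 and 11.54 in vehicle and 10.80, 10.86 and 10.94 in Hke3, a difference of 0.65 (SE 0.07, adjusted p 8.34e-06). Unlike those of MRPS2 and MRPL4, its Hke3 arrays lay close together. MRPL2, a protein near the catalytic centre of the large subunit, differed by 0.56 (SE 0.12), and MRPS26, a mitochondria-specific small subunit protein, by 0.44 (SE 0.12). MRPS9, MRPL32 and MRPL45, the last on the side of the large subunit where the nascent chain leaves, were higher in vehicle by 0.39, 0.36 and 0.24, with no overlap between the groups, and the call of MRPL45 was lost without vehicle replicate 1 or Hke3 replicate 1.

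**Figure D2:**
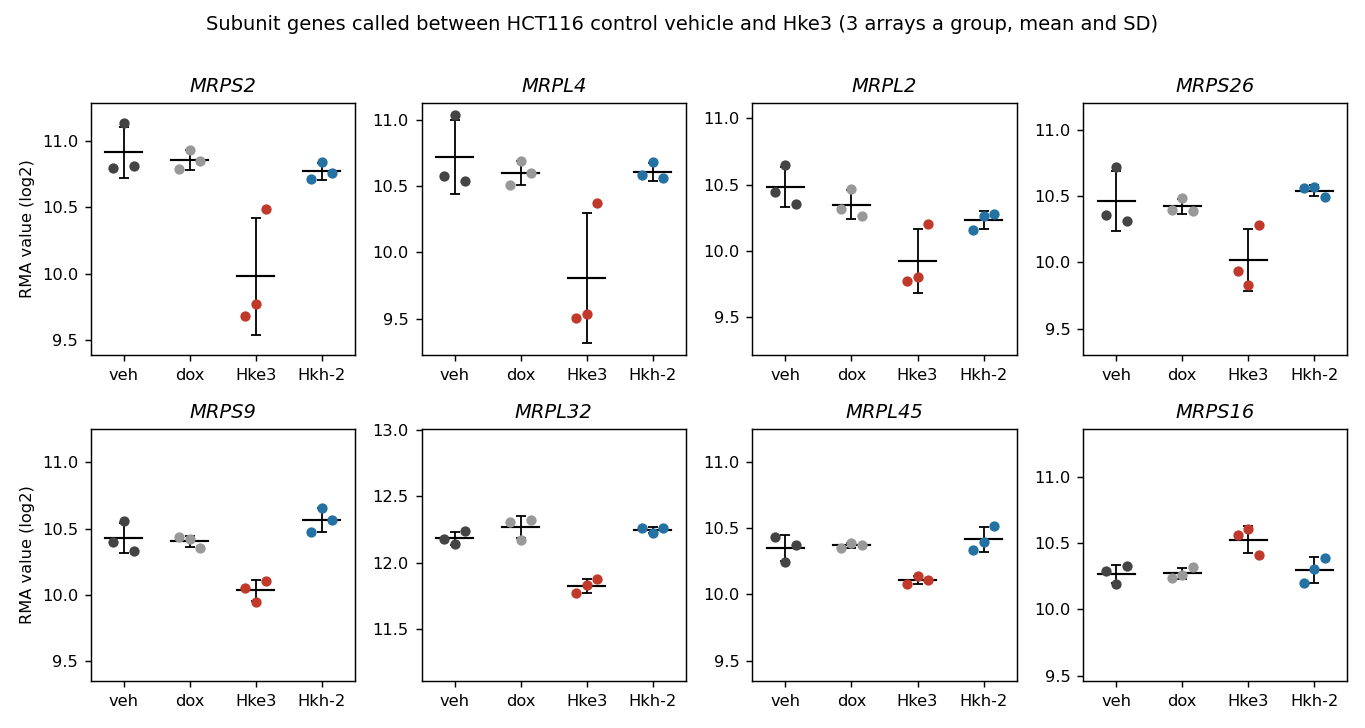
RMA log2 values (y axis) of 8 subunit genes on the 3 arrays of each group (points, x axis; veh is HCT116 control vehicle and dox is HCT116 control doxycycline), with the group mean (bar) and SD (error bar), every panel spanning the same number of log2 units. The Hke3 arrays are low for 7 genes and high for MRPS16, and 1 Hke3 array lies apart for MRPS2, MRPL4, MRPL2 and MRPS26.

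A total of 5 genes went the other way. MRPL33, a small protein of the large subunit, read 11.38, 11.51 and 11.44 in vehicle and 12.05, 12.01 and 11.96 in Hke3, so that it was lower in vehicle by 0.56 (log2 fold change -0.56, SE 0.07, adjusted p 1.55e-05). The other genes that were lower in vehicle were MRPS16 (-0.26), MRPS10 (-0.25), MRPS18C (-0.24) and MRPL54 (-0.21). All 5 were free of overlap between the groups, but the call of MRPL54 (adjusted p 0.0432) was lost under 11 of 23 alternatives, among them leaving out vehicle replicate 2 or 3, Hke3 replicate 1 or 2, Hkh-2 replicate 2 or 3 or doxycycline replicate 1 or 2. The call of MRPS16 (adjusted p 0.0162) was lost under 5 of 23, among them leaving out vehicle replicate 2 or Hke3 replicate 1 or 2, and that of MRPS18C (adjusted p 0.0191) under 5 of 22, among them leaving out vehicle replicate 3 or Hke3 replicate 1 or 2. That of MRPS10 (adjusted p 0.0125) was lost without vehicle replicate 3 and with only the compared groups in the fit.

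Of all genes tested, 24.6% were higher in vehicle than in Hke3 and 23.2% lower, to set beside each class. By class, 9 of 30 large subunit genes with a bacterial homologue were higher in vehicle than in Hke3 and 1 was lower, with MRPL55 counted in this class. Of the mitochondria-specific genes of the large subunit, 7 of 20 were higher and 1 was lower. In the small subunit, 5 of 10 mitochondria-specific genes were higher and none was lower, while of 15 genes with a bacterial homologue 4 were higher and 3 lower. The class medians ran from 0.0453 for the latter to 0.28 for the mitochondria-specific small subunit genes. Whether the classes differ was not tested.

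Against Hkh-2, fewer subunit genes passed the threshold. Of the 75, 6 (8%) were higher in vehicle than in Hkh-2, where 14.3% of all genes were, and 11 (14.7%) were lower, where 21.7% of all genes were, both shares lying under those of all genes. The median difference was -0.0426, against -0.0205 for all genes. Without both arrays that stand apart, 9 (12%; 19.3% of all genes) were higher and 22 (29.3%; 28.4% of all genes) lower, so that the lower share did not lie under that of all genes. With the mean of all probe sets of a gene the median turned to 0.0197, against 0.00193 for all genes.

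MRPL19, a large subunit protein (chromosome 2, 75646783 to 75662206), read 10.88, 10.74 and 10.96 in vehicle and 11.47, 11.38 and 11.50 in Hkh-2, which did not overlap. The log2 fold change was -0.59 (SE 0.09, adjusted p 0.000157). This call was lost with the mean of all probe sets of the gene, which gave -0.03 (adjusted p 0.898), and its other 2 probe sets gave 0.46 and 0.04 and were not called. MRPL19 was also the only gene with probe sets called in opposite directions. In Hke3 minus Hkh-2 the probe set with the highest signal was lower (-0.44) and a dimmer probe set was higher (0.65), both past the threshold in the fit of all probe sets. MRPS18A, which sits in the large subunit despite its name, was lower in vehicle than in Hkh-2 by 0.51 (log2 fold change -0.51, SE 0.09, adjusted p 0.000661), with 9.73, 9.80 and 9.62 in vehicle and 10.10, 10.26 and 10.32 in Hkh-2. Its second probe set gave -0.54.

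Of its paralogues, MRPS18C, the form in the bacterial position of the small subunit, was lower in vehicle than in Hkh-2 (-0.43, adjusted p 0.000594; 0.00 and not called with the mean of all probe sets), and MRPS18B, a small subunit protein, gave -0.06 (SE 0.09) and was not called. In the stalk of the large subunit, which recruits translation factors, MRPL10 was higher in vehicle than in Hkh-2 (0.36), MRPL11 was lower (-0.30), and MRPL12 gave -0.25 with an adjusted p of 0.212. MRPS12, the protein at the decoding site, gave -0.25 with an adjusted p of 0.055.

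MRPS33 and MRPS28 were lower in Hkh-2 than in vehicle and than in Hke3. MRPS33, a small subunit protein, read 11.20, 11.21 and 11.30 in vehicle and 10.77, 10.85 and 10.95 in Hkh-2, a difference of 0.38 (SE 0.07, adjusted p 0.000997). Its Hke3 arrays, at 11.34, 11.26 and 11.21, overlapped with vehicle. MRPS28, also of the small subunit, differed by 0.31 between vehicle and Hkh-2 (SE 0.07, adjusted p 0.00497) and gave -0.07 between vehicle and Hke3 (adjusted p 0.444). MRPL13 and MRPS25 were lower in vehicle than in Hkh-2, by 0.31 and 0.30 (log2 fold changes -0.31 and -0.30), and the latter call was lost without Hkh-2 replicate 3.

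Whether the recombined lines differ from each other was tested directly. In Hke3, 31 of the 75 subunit genes (41.3%) were lower than in Hkh-2, where 23.5% of all genes were, and 6 (8%) were higher, where 16.3% of all genes were. The median difference was -0.188, against -0.0593 for all genes, and without both arrays that stand apart 40 (53.3%; 34.2% of all genes) were lower and 8 (10.7%; 23% of all genes) higher. With the mean of all probe sets of a gene, 27 (36%) were lower, where 23.2% of all genes were. The median was then -0.114, against -0.0496 for all genes. Ordering the 3 lines by their means, Hke3 was the lowest for 48 of 75 genes (64%; 43.5% of all genes) and Hkh-2 the highest for 36 (48%; 34.6% of all genes).

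MRPL4 and MRPS6 led this comparison, both lower in Hke3 by 0.80 (log2 fold change -0.80). MRPS6, a small subunit protein (chromosome 21, 34073578 to 34143030), was the only subunit gene called in opposite directions against the lines (298 of all 12852 genes were). It read 10.95, 11.12 and 11.23 in vehicle, 10.82, 10.56 and 10.56 in Hke3 and 11.50, 11.42 and 11.42 in Hkh-2, 3 levels without overlap. It was higher in vehicle than in Hke3 (0.45, SE 0.10, adjusted p 0.00188) and lower than in Hkh-2 (-0.35, SE 0.10, adjusted p 0.0125), the latter call being lost without vehicle replicate 1.

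MRPS2 (-0.79), MRPL37 (-0.55), MRPS9 (-0.53), MRPS26 (-0.52) and MRPS25 (-0.49) followed. MRPL37, a mitochondria-specific large subunit protein, read 10.70, 10.66 and 11.22 in Hke3 and 11.34, 11.43 and 11.46 in Hkh-2, so its difference was mostly in Hke3 replicates 1 and 2, and leaving out both arrays that stand apart gave -0.73. The genes that were higher in Hke3 than in Hkh-2 included MRPS33 (0.41), MRPS28 (0.39), MRPL33 (0.31), MRPL17 (0.25) and MRPS16 (0.23). The calls of MRPL17 and MRPS16 were lost without Hke3 replicate 1 or 2 or Hkh-2 replicate 1, and that of MRPS16 also without Hkh-2 replicate 2.

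Hke3 was lower than both HCT116 control vehicle and Hkh-2 for 17 subunit genes (22.7%), where 12.1% of all genes were, and higher than both for MRPL33 and MRPS16 (2.67%), where 10.8% of all genes were. These comparisons share the Hke3 arrays, so the values stand side by side without a test of their overlap. The 17 genes were MRPL4, MRPL10, MRPL14, MRPL15, MRPL16, MRPL32, MRPL36, MRPL39 and MRPL45 in the large subunit, MRPS2, MRPS5, MRPS6, MRPS9, MRPS26, MRPS27 and MRPS35 in the small subunit, and MRPS30, which sits in the large subunit despite its name.

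**Figure D3:**
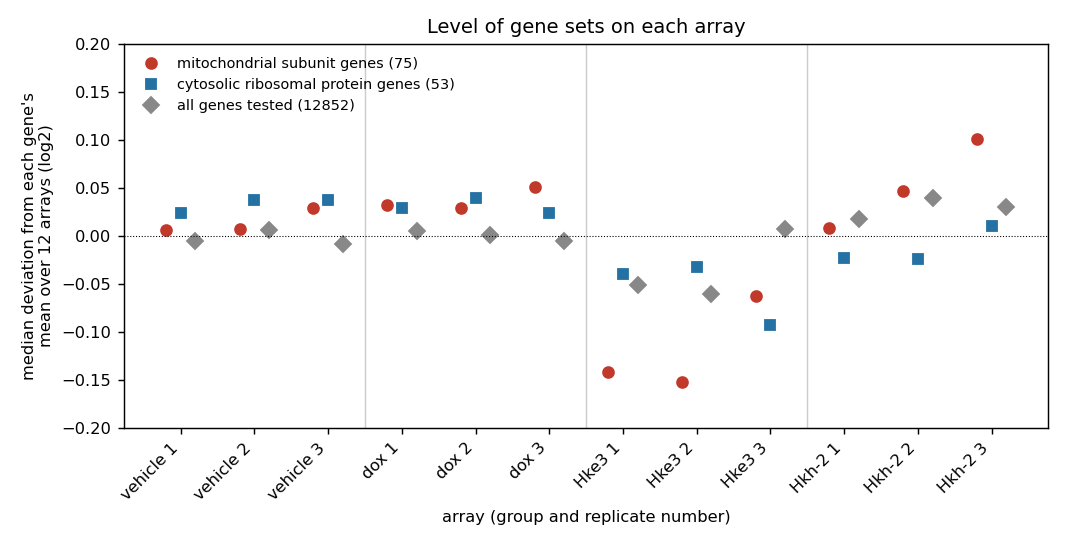
For each array (x axis), the points give the median over a set of genes of the deviation from each gene's own mean over the 12 arrays (y axis, log2). The 75 mitochondrial subunit genes lie at -0.142, -0.152 and -0.0631 on the Hke3 arrays and between 0.00597 and 0.101 on the other 9 arrays.

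The low level in Hke3 was visible on each of its arrays. The median deviation of the 75 genes from their own means over all 12 arrays was -0.142, -0.152 and -0.0631 in Hke3 and lay between 0.00597 and 0.0291 in vehicle. In Hkh-2 it was 0.00802, 0.0472 and 0.101. All genes tested gave -0.0509, -0.0604 and 0.00696 on the Hke3 arrays, and the 53 cytosolic ribosomal protein genes tested gave -0.0394, -0.0327 and -0.0934.

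A total of 8 genes were called the same way against both lines. Higher in vehicle than in either were MRPL10, MRPL16, MRPL38 and MRPS27 (9.04% of all genes passed the same rule), and lower than in either were MRPL33, MRPL54, MRPS10 and MRPS18C (12.6% of all genes). With 4 of 75 in each direction, both shares were below those of all genes. For the genes higher than both lines this did not hold under every setting. With vehicle and doxycycline arrays pooled they were 9 (12%), where 11.5% of all genes were. Without probe sets ending in _s_at or _x_at, which may bind several transcripts, they were 4 of 40 (10%), where 8.91% of all genes were. Of the rest of the 75 genes, 37 were called against neither line, 29 against 1 line and MRPS6 in opposite directions. Of all 12852 genes, 5152 were called against neither line, 4627 against 1 line and 298 in opposite directions. Both contrasts share the vehicle arrays.

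MRPL10, the base of the stalk (chromosome 17, 47823272 to 47831541), read 11.58, 11.72 and 11.53 in vehicle, 10.71, 10.72 and 11.09 in Hke3 and 11.22, 11.30 and 11.24 in Hkh-2. All 6 arrays of the recombined lines lay below the vehicle arrays, with differences of 0.77 from Hke3 (SE 0.10, adjusted p 3.37e-05) and 0.36 from Hkh-2 (adjusted p 0.0122). MRPL16, which lies by the site of tRNA binding in the large subunit (chromosome 11, 59806140 to 59810778), read 11.01, 11.04 and 11.02 in vehicle, 10.56, 10.48 and 10.55 in Hke3 and 10.75, 10.87 and 10.89 in Hkh-2. Its difference of 0.49 from Hke3 kept its call under all 22 alternatives tried, while that of 0.19 from Hkh-2 (adjusted p 0.0411) was lost under 13 of 22, among them leaving out any 1 array of vehicle, doxycycline or Hkh-2.

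For MRPS27 the difference from Hkh-2 was 0.22 (adjusted p 0.0276) and was lost when vehicle replicate 1 or 3 or Hkh-2 replicate 1 or 2 was left out. MRPL38, a mitochondria-specific large subunit protein, differed by 0.32 from Hke3 (adjusted p 0.0479) and by 0.41 from Hkh-2 (adjusted p 0.0217). Its value on Hke3 replicate 3, at 10.75, lay within the vehicle range of 10.67 to 10.94, and the call against Hke3 was lost under 15 of 23 alternatives, among them leaving out vehicle replicate 1 or 2, Hke3 replicate 1 or 2, or any 1 array of doxycycline or Hkh-2. The call against Hkh-2 was lost without vehicle replicate 2 or Hkh-2 replicate 1 or 2.

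MRPL33 was the clearest of the genes that were lower in vehicle, with 11.70 on all 3 Hkh-2 arrays, between the vehicle and the Hke3 values, and a log2 fold change against Hkh-2 of -0.26 (SE 0.07, adjusted p 0.00802). MRPS18C (chromosome 4, 83456058 to 83462298) read 10.89, 10.91 and 10.86 in vehicle, 11.21, 11.16 and 11.00 in Hke3 and 11.23, 11.32 and 11.40 in Hkh-2. MRPS10 (chromosome 6, 42206807 to 42217861) gave -0.25 against Hke3 and -0.31 against Hkh-2, but its other 2 probe sets gave 0.08 and 0.12 against Hkh-2 and were not called there. MRPL54 gave -0.21 and -0.24, and its call against Hkh-2 was lost without vehicle replicate 3 or Hkh-2 replicate 2 or 3.

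**Figure D4:**
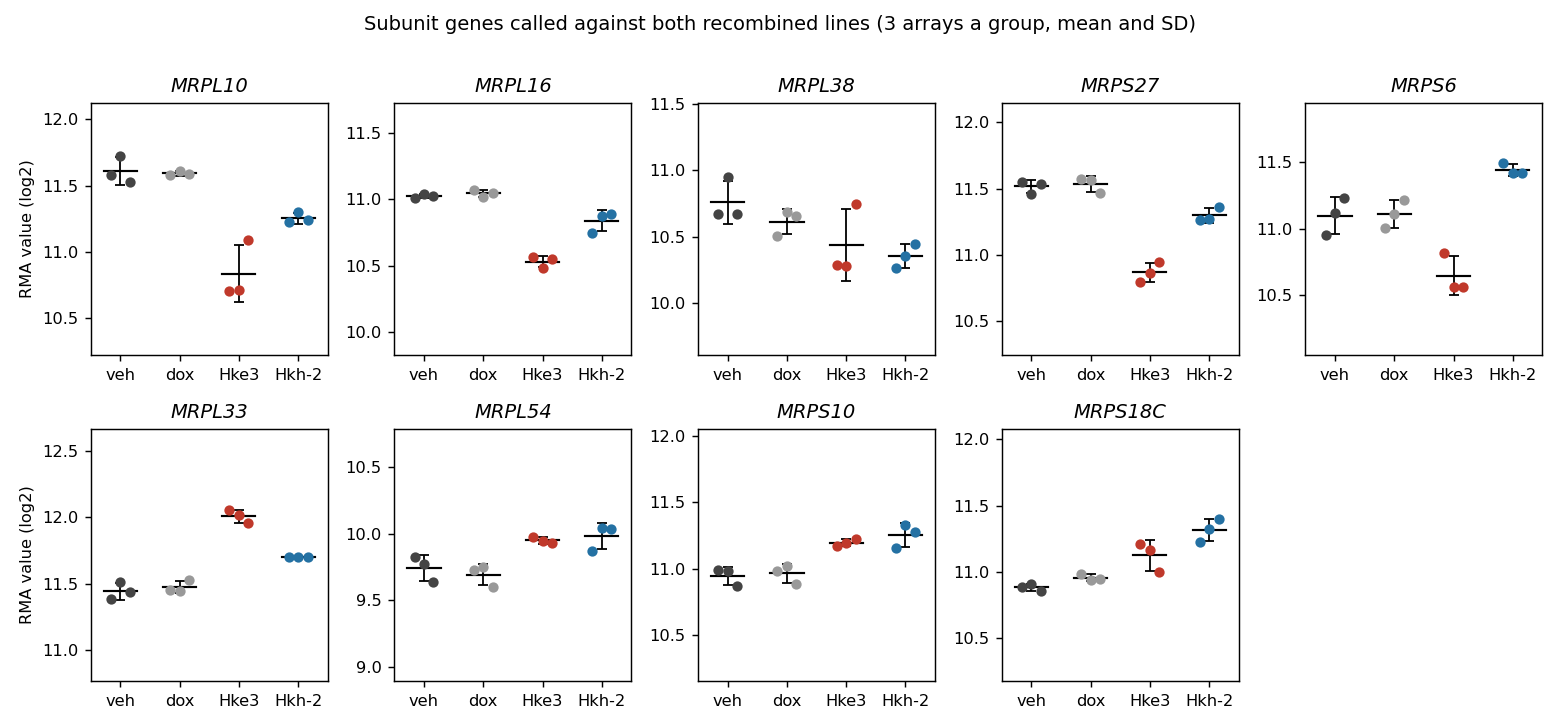
RMA log2 values (y axis) on the 3 arrays of each group (points, x axis; veh is HCT116 control vehicle and dox is HCT116 control doxycycline), with the group mean (bar) and SD (error bar), for the 9 subunit genes called against both recombined lines, every panel spanning the same number of log2 units. MRPL10, MRPL16, MRPL38 and MRPS27 are highest in the HCT116 control groups, MRPL33, MRPL54, MRPS10 and MRPS18C lowest there, and MRPS6 lies between Hke3 and Hkh-2.

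The promoters of the subunit genes were compared with the motifs of factors that bind near the start sites of mitochondrial genes. RefSeq promoters (GRCh38.p14, 250 bases before to 50 after each start) were matched for 67 of the 75 genes, and those not matched were MRPL2, MRPL10, MRPL13, MRPL15, MRPL21, MRPL23, MRPL35 and MRPS28. The ETS motif CCGGAAG, read on both strands, was present in the promoters of 29 genes (43.3%), against 16.5% of all 15843 protein-coding genes with a promoter. This background, used for every motif here, included genes that were not tested, and shares among genes of like signal were not counted. The YY1 motif AAGATGGCG was present for 12 (17.9%), against 3.21%. For the NRF1 motif GCATGCGC the shares were 8.96% and 4.89%, and for the E-box CACGTG, which MYC binds, 13.4% and 10.9%. No ETS match overlapped a YY1 match in these genes, and the median GC content was 60.3% in the subunit promoters and 62.3% in all.

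Of the 7 matched genes that were called the same way against both lines, 6 had the ETS motif and MRPS27, whose promoter is not shown, did not. Of the 6, MRPL16 and MRPL38 were higher in vehicle, and MRPL33, MRPL54, MRPS10 and MRPS18C were lower. The motif was not counted over all genes called the same way, so no share stands beside the 6 and they are a description. The promoters of 5 of the 6 are shown beside those of MRPS2 and MRPS6, which had no ETS motif, with the matched motifs in capitals: CCGGAAG or its reverse CTTCCGG for ETS, AAGATGGCG for YY1, GCATGCGC or its reverse GCGCATGC for NRF1, and CACGTG for the E-box. The regions are chr11:59810729-59811028 (minus strand) for MRPL16, chr17:75904835-75905134 (minus) for MRPL38, chr2:27771469-27771768 (plus) for MRPL33, chr4:83455808-83456107 (plus) for MRPS18C, chr6:42217812-42218111 (minus) for MRPS10, chr9:135499715-135500014 (plus) for the first of 2 starts of MRPS2, and chr21:34073328-34073627 (plus) for MRPS6.
MRPL16: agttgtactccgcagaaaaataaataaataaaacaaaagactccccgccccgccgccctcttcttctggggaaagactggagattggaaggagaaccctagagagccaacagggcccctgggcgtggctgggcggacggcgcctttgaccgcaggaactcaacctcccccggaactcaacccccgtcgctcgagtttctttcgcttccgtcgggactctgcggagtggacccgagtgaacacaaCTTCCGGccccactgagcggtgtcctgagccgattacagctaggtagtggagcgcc
MRPL38: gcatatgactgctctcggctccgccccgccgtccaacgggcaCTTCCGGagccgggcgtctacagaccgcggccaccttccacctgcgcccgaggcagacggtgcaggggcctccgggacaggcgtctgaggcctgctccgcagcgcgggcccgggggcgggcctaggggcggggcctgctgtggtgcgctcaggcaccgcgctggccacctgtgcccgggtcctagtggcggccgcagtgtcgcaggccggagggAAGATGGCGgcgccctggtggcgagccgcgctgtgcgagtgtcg
MRPL33: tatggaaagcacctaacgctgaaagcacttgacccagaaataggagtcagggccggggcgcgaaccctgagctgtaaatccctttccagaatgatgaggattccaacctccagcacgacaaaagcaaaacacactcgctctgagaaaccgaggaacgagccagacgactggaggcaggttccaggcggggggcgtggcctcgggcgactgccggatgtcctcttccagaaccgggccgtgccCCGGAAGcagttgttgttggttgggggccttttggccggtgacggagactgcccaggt
MRPS18C: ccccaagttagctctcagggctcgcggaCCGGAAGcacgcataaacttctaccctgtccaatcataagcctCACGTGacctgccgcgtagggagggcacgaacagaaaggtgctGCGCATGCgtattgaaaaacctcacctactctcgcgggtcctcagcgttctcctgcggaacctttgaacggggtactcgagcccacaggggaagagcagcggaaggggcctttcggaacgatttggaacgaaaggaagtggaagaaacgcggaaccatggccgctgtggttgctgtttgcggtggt
MRPS10: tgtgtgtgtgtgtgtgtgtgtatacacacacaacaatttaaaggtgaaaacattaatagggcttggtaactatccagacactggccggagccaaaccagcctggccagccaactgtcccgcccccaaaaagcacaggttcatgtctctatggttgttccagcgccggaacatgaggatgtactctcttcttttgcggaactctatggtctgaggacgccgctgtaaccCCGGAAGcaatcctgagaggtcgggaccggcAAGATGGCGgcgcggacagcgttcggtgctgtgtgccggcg
MRPS2: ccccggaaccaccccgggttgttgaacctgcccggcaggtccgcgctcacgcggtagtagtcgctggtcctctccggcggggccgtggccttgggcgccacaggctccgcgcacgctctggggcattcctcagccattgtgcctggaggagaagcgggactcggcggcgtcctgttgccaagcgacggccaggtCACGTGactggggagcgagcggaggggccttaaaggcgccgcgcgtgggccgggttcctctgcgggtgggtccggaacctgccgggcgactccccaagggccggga
MRPS6: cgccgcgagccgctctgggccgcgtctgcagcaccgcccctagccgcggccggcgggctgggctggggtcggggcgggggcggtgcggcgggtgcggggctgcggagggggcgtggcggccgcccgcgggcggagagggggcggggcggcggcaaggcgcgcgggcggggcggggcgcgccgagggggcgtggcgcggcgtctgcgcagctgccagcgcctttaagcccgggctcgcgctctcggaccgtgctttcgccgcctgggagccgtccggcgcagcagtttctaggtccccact

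In MRPL38 and MRPS10 an ETS and a YY1 match stood in the same promoter, and MRPS18C held an ETS, an NRF1 and an E-box match. MRPL16 carried the ETS match at the start site, MRPL33 and MRPS10 shortly before it, and MRPL38 and MRPS18C further upstream. A match describes only these letters in this window. Of the 29 genes with the ETS motif, 6 were higher and 5 lower in vehicle than in Hke3, and of the 38 without it, 15 were higher and none lower. Between Hke3 and Hkh-2, 3 of the 29 were higher and 5 lower, and 2 of the 38 were higher and 23 lower. Of all genes tested, which were not split by the motif, 24.6% were higher and 23.2% lower in the first comparison and 16.3% and 23.5% in the second. These counts are a description, since the motif was looked at with the calls known.

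The other parts of the mitochondrial translation machinery are given for comparison. The shares of all genes tested, to set beside each list, were 24.6% higher and 23.2% lower for vehicle minus Hke3, and 16.3% higher and 23.5% lower for Hke3 minus Hkh-2. Of 20 genes for assembly of the mitochondrial ribosome, 10 were higher in vehicle than in Hke3 and none was lower, and 13 were lower in Hke3 than in Hkh-2 and none higher. The GTPase NOA1 differed by 0.84 between vehicle and Hke3 (adjusted p 3.5e-05) and the helicase DDX28 by 0.67. Of 16 translation factors, 10 were higher and 3 lower in vehicle than in Hke3, led by LRPPRC (0.97), which stabilizes mitochondrial messenger RNAs, and OXA1L, the insertase that receives the nascent chains, was lower (-0.53). The elongation factor TSFM differed by 0.37.

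Among 18 mitochondrial tRNA synthetases and amidotransferase subunits, 12 were higher in vehicle than in Hke3, led by FARS2 (1.07), and none was lower. Of 9 genes for transcription and upkeep of mitochondrial DNA, 5 were higher, among them the helicase TWNK (1.07) and the RNA polymerase POLRMT (1.08). Of 4 subunits with other symbols, PTCD3 was higher (0.33) and DAP3, CHCHD1 and GADD45GIP1 were not called. Hke3 against Hkh-2 gave 5 lower translation factors and 1 higher, 8 lower synthetases and 5 lower genes for mitochondrial DNA.

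**Figure D5:**
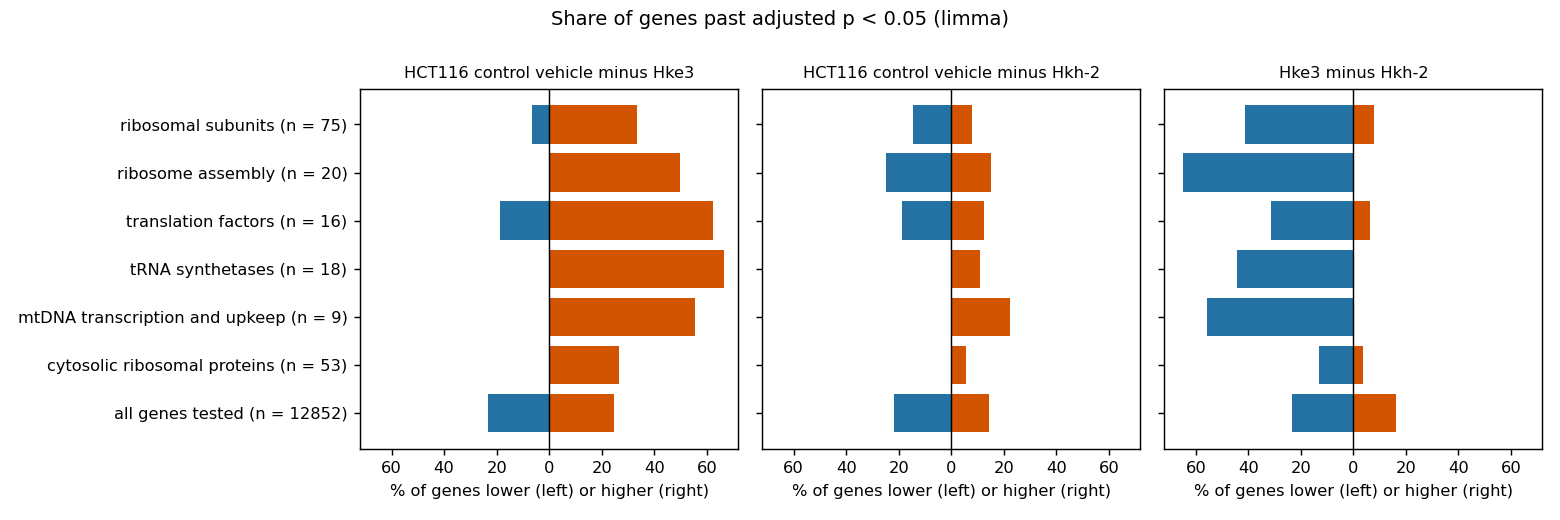
Percent of genes in each list (rows, with the number tested) that were higher (right, orange) or lower (left, blue) at an adjusted p below 0.05, in 3 comparisons (panels). In vehicle minus Hke3, 33.3% of the subunit genes and 50% of the assembly genes were higher, against 24.6% of all genes tested.

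Of the 53 cytosolic ribosomal protein genes, 14 (26.4%) were higher in vehicle than in Hke3, where 24.6% of all genes were, and none was lower, where 23.2% were. Their median difference was 0.0737, and whether they differ from the mitochondrial genes was not tested. Of 8 tested regulators of mitochondrial gene expression, 4 were higher in vehicle than in Hke3 and 1 lower. MYC read 12.69, 12.66 and 12.56 in vehicle, 11.31, 11.48 and 11.37 in Hke3 and 12.67, 12.77 and 12.68 in Hkh-2, so that its Hke3 arrays lay below all others (log2 fold change 1.25 for vehicle minus Hke3, adjusted p 2.2e-08, and -0.07 for vehicle minus Hkh-2). PPARGC1B and PPRC1, coactivators of mitochondrial genes, differed by 0.87 and 0.82, and GABPB1, a partner of the ETS factor GABP, was lower in vehicle than in Hke3 (-0.70) and than in Hkh-2 (-0.57). The part of these regulators in the levels of the subunit genes was not tested.

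Of 17 genes of the mitochondrial stress response, 8 were higher in vehicle than in Hke3 and 1 was lower. The protease LONP1 (0.89), ATF4 (0.63) and the serine synthesis enzyme PHGDH (1.06) were higher, and the secreted factor GDF15 was lower (-1.01). Against Hkh-2, where 14.3% of all genes were higher and 21.7% lower in vehicle, none was higher, and GDF15 (-1.35) and the chaperone HSPA9 (-0.25) were lower.

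Doxycycline, an inhibitor of mitochondrial translation, left no subunit gene past the threshold after 3 days at 25 ng/ml. Whether mitochondrial translation was inhibited in these cells at this dose, set to induce hairpin vectors, was not measured. None of the 75 was higher or lower, where 0% of all genes tested were in either direction, and none had an unadjusted p below 0.05 with limma, where 0.988% of all genes did. The median difference between doxycycline and vehicle was 0.0155, with 48 genes above and 27 below 0, and the single values ran from -0.18 to 0.15. The 95% confidence interval lay within 0.3 of 0 on the log2 scale for 62 of the 75 genes, and the widest bounds were -0.54 for MRPL4 and 0.37 for MRPS31.

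The smallest p-value was that of MRPS25, a mitochondria-specific small subunit protein, which read 9.88, 9.71 and 9.85 with vehicle and 9.88, 10.03 and 9.97 with doxycycline. The difference was 0.15 (95% confidence interval -0.02 to 0.32, unadjusted p 0.0832 and adjusted p 1 with limma). MRPS34 (-0.18), MRPL50 (0.12) and MRPL32 (0.09) followed, all with an adjusted p of 1. For 9 of the 75 genes (12%) the doxycycline and vehicle arrays did not overlap, against 4.37% of all genes, with none of them past the threshold. Among 3 and 3 exchangeable arrays such a separation has a probability of 0.1, so it was not read as a response.

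The genes with the largest line differences were close to vehicle under doxycycline. MRPS2 gave -0.06, MRPL4 -0.12, MRPL10 -0.02, MRPS27 0.02, MRPL33 0.03 and MRPL19 0.02 for doxycycline minus vehicle. The assembly genes, translation factors, tRNA synthetases and stress response genes had no call either, and the median of the stress response genes was 0.00788.

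Agreement between probe sets was limited. Of 30 subunit genes with at least 2 probe sets past the limit on signal, the call differed between probe sets for 15 in vehicle minus Hke3, 18 in vehicle minus Hkh-2 and 15 in Hke3 minus Hkh-2, besides MRPL19 with opposite calls in the last. MRPL44, a mitochondria-specific protein of the large subunit, was not called by its main probe set against either line, while its dimmer probe set gave -0.33 and -0.34, both called. MRPL20-AS1, the antisense RNA, had group means between 8.98 and 9.14 and was not called in vehicle minus Hke3 (0.13, adjusted p 0.156).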

How the data were processed

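RNA of HCT116 control cells with vehicle or doxycycline and of Hke3 and Hkh-2 cells was hybridised to 12 arrays. The deposited table holds a log2 value for every probe set on every array. Per the labels' processing notes the authors used RMA, and its version and which arrays were normalized in 1 run are not given in the sources used here. RMA makes the arrays' distributions alike, so a shift common to most genes would not be seen, and array medians ran from 5.8 to 5.86. Labels gave the groups and the replicate numbers. The gene that the recombination targeted is not reported here.

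Names of probe sets came from the platform annotation (41097 with 1 symbol, 1801 with several and 11777 unnamed of 54675), and gene IDs tied 41043 of them to RefSeq (GRCh38.p14). The probe set with the largest mean signal stood for its gene, and genes with a group mean of at least 6 in at least 1 group were kept, after the limit in the study's methods. limma 3.58.1 in R 4.3.3 was fitted with 4 group means (lmFit, contrasts, eBayes) and tested on simulated data. Signed differences are the first group minus the second. The text names up to 8 genes per direction and comparison with the largest fold changes among called genes without overlap, those called against both lines, those with the smallest p for doxycycline, a few structural subunits, and up to 4 genes of each comparison list. The members, lists, motifs and tests were chosen with earlier results of these data known. Same-numbered vehicle and doxycycline arrays deviated together (r = 0.228, 0.212 and 0.453), and the replicate number was tried as a block. Alternatives in the choice of probe set, signal limit, normalization, variance model and arrays were also fitted. The number of arrays limits the precision.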

Additional observations from a re-analysis of the deposited data

Results flagged for a closer look

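The difference from HCT116 control vehicle was not the same in Hke3 and Hkh-2 for 27 subunit genes, by the direct test of Hke3 minus Hkh-2 (limma, adjusted p below 0.05) among the genes of the 75 called against at least 1 line. For 12 of them the 2 differences had opposite signs, counted whatever their size, as for MRPL58 (0.002 against Hke3 and -0.26 against Hkh-2). Only MRPS6 was called in opposite directions. The 27 and the 12 were not counted over all genes, so no share of all genes stands beside them. Hke3 was lower than Hkh-2 for 23 genes, by log2 fold changes of -0.803 for MRPL4, -0.797 for MRPS6, -0.792 for MRPS2, -0.528 for MRPS9, -0.52 for MRPS26, -0.494 for MRPS25, -0.436 for MRPL19, -0.43 for MRPS27, -0.421 for MRPL32, -0.416 for MRPL10, -0.415 for MRPS18A, -0.369 for MRPS30, -0.351 for MRPL15, -0.325 for MRPL14, -0.307 for MRPL16, -0.306 for MRPL45, -0.29 for MRPL39, -0.289 for MRPL11, -0.259 for MRPL58, -0.257 for MRPS5, -0.252 for MRPS35, -0.223 for MRPL36 and -0.188 for MRPL13. Hke3 was higher for 4, by 0.228 for MRPS16, 0.309 for MRPL33, 0.386 for MRPS28 and 0.413 for MRPS33. The call of MRPL13 (adjusted p 0.0378) was lost under 10 of 21 alternatives, among them leaving out Hke3 replicate 1 or 2, Hkh-2 replicate 1 or 2 or any 1 doxycycline array, and that of MRPS16 (adjusted p 0.0341) under 9 of 22, among them leaving out Hke3 replicate 1 or 2 or Hkh-2 replicate 1 or 2. With the mean of all probe sets, MRPL19 turned to 0.156 and MRPS25 lost its call. Both lines were compared with the same vehicle arrays, and each line is 1 clone, so that clone and genotype cannot be told apart.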

How the results depend on the processing

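Over the named genes, 2683 values kept their side of the threshold (where not called under either setting, whatever their sign), 108 lost the call, 60 gained one and 5 reversed. With the mean of all probe sets, MRPL19 in Hke3 minus Hkh-2 gave 0.156, MRPS10 there 0.294 and MRPS18C in vehicle minus Hkh-2 0.00243. Without probe sets ending in _s_at or _x_at, which may bind several transcripts, MRPL12 in Hke3 minus Hkh-2 gave 0.338 and MRPL4 in vehicle minus Hkh-2 -0.418. The cause was not tested.

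The median of the subunit genes is given here with that of all genes or probe sets tested under the same setting in parentheses. In vehicle minus Hke3 it was 0.121 (0.00479) with each array's median subtracted and 0.102 (0.0553) with the mean of all probe sets. In vehicle minus Hkh-2 it was -0.00325 (-0.0182) with cyclic loess and 0.0553 (0.00574) with every probe set tested on its own. It was 0.0197 (0.00193) there with the mean of all probe sets and -0.00322 (-0.00646) without _s_at and _x_at probe sets. In Hke3 minus Hkh-2 it was -0.144 (-0.0173) with cyclic loess and -0.0923 (-0.0341) with every probe set on its own. With the mean of all probe sets it was -0.114 (-0.0496) there.

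The share of all genes called moved with the setting as well, so counts given here and below without it are no result about the subunit genes. With every probe set on its own (128), 17 were higher and 17 lower in vehicle minus Hkh-2, 11 lower in vehicle minus Hke3 and 14 higher in Hke3 minus Hkh-2. Higher than both lines were 8 (6.25%), where 10.6% of all probe sets tested were, and 7 were lower. Without _s_at and _x_at probe sets (40 genes), 15 were higher in vehicle minus Hke3 and 13 lower in Hke3 minus Hkh-2. With the mean of all probe sets, 11 were higher in vehicle minus Hkh-2. With vehicle and doxycycline arrays pooled, 13 were higher and 18 lower than Hkh-2, and 9 (12%) higher than both lines, where 11.5% of all genes were. With only the compared groups in the fit, 1 was lower in vehicle minus Hke3 and 3 higher in Hke3 minus Hkh-2. Higher than both lines was 1 (1.33%), where 7.07% of all genes were, and 1 was lower. The genes higher than both lines were 1 with each array's median subtracted (7.21% of all genes were) and 1 with no filter (5.62% of all genes). They were 7 (9.33%) without vehicle replicate 2 and Hke3 replicate 3 together, where 10.7% of all genes were. That setting gave 22 lower in vehicle minus Hkh-2.

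Leaving out 1 array at a time, the higher and lower counts ran from 21 (without Hke3 replicate 1) to 36 (without Hke3 replicate 3) and from 2 to 8 (the same arrays) in vehicle minus Hke3, from 3 (without Hkh-2 replicate 1 or 2) to 7 and from 9 to 18 (without vehicle replicate 2 or Hke3 replicate 3) in vehicle minus Hkh-2, and from 3 (without Hke3 replicate 1 or 2 or Hkh-2 replicate 1) to 6 and from 25 to 39 in Hke3 minus Hkh-2. The genes higher than both lines ran from 1 (1.33%) to 5 (6.67%), where the share of all genes ran from 7.09% to 10.1%. Those lower than both lines ran from 1 (without vehicle replicate 3) to 4. The medians ran from 0.128 to 0.189, from -0.0582 to -0.0223 and from -0.228 (without Hkh-2 replicate 1) to -0.145 (without Hkh-2 replicate 3). No doxycycline call was made under any alternative.

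With the replicate number as a block, 26 were higher and 4 lower in vehicle minus Hke3, 5 and 12 in vehicle minus Hkh-2, and 4 and 31 in Hke3 minus Hkh-2. Higher than both lines were 3 (4%), where 8.45% of all genes were, and 3 were lower. For doxycycline 0 were called, also with only the vehicle and doxycycline arrays in the fit, an alternative chosen after seeing the data.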
